A study of Mus musculus with 6 samples.

Results

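The genes described here encode the subunits of the mitochondrial respiratory chain and of ATP synthase. They were chosen by name, as the array symbols that begin with Nduf followed by a, b, c, s or v, the Sdh genes, symbols that begin with Uqcr, Cox symbols for subunits 4 to 8 that carry an isoform letter, *Cyc1*, *Cycs* and symbols that begin with Atp5. Earlier results of these data were known when this set was chosen. The rule found 75 genes with 114 probes, of 31508 genes and 45281 probes on the array. The name patterns also took in neighbours that are not subunits, *Ndufaf1*, an assembly factor of complex I, and *Atp5s*, a coupling factor, and both were kept apart from the complexes. The study asked how parathyroid hormone (PTH) changes gene expression in osteocytes that still lie in their bone matrix. Cortical bone tubes, the shafts of tibia and femur, came from C57BL6 mice that the labels give as 3 months old. Cleaning, flushing and digestion with collagenase and trypsin were used to remove muscle, marrow and surface cells. Control tubes (Ctr) were left untreated and PTH tubes (Pth) received PTH 1-34 at 250 nM for 24 hours, with 3 arrays in each group, and the labels name no transgene or deletion. RNA of each preparation was pooled from about 10 bones of 4 to 5 mice, so an array is a pool and not an animal, and a p-value here measures the spread between these preparations.

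Oxidative phosphorylation moves electrons from NADH and succinate through complexes I and II to ubiquinone, on through complex III and the small carrier cytochrome c to complex IV, and there to oxygen. Complexes I, III and IV pump protons out of the matrix, and ATP synthase lets them back to make ATP. Complex II is encoded wholly in the nucleus, while a few core subunits of the other complexes are encoded by mitochondrial DNA. Osteoblasts and osteocytes use both glycolysis and oxidative phosphorylation, and osteoclasts are known for their many mitochondria.

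After background correction and quantile normalization, each value below is a normalized log2 signal or a difference (PTH minus control) between group means of it. A level can be compared between arrays for 1 probe but not between probes. Between 34.2% and 38.4% of probes were detected (detection p under 0.05) on each array, and a probe was tested if it was detected on at least 3 of the 6. Of the 75 genes, 70 were tested with 99 probes, and each gene is represented by its brightest tested probe. For 69 of the 70, that probe was detected on all 6 arrays, the exception being *Atp5k*, and no tested probe was detected in 1 group only. The 5 genes not tested were *Ndufs1*, *Sdha*, *Uqcrfs1*, *Cox8b* and *Cox8c*. As a check of the treatment, the RANKL gene *Tnfsf11* was at 8.21, 8.02 and 8.94 in control tubes and at 9.91, 9.65 and 10.09 in PTH tubes (log2 difference 1.49, adjusted p = 0.0298, limma).

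RefSeq promoter windows of assembly GRCm38.p6 were found for 63 of the 75 genes, each 300 bases long, with 250 before and 50 after the start site. Motifs linked to the control of respiratory genes were searched on both strands. The motif of the nuclear respiratory factor NRF1 (GCGCA, any base, then GCGC) was present in 15 windows, or 23.8%, against 4.78% of 27025 genes with a window and 10.8% of the 5212 tested genes whose array symbol had one. The GABPA motif (CCGGAAG) was present in 25.4%, against 9.12% and 17.7%. The cAMP response element (TGACGTCA) was present in 7.94%, against 1.88% and 3.17%, and the YY1 motif (AAGATGGC) in 14.3%, against 2.88% and 4.62%. A match is a run of letters and not a measured binding site. Among the 14 windows of genes that lay higher on every PTH array, described below, the 4 motifs were present in 21.4%, 28.6%, 7.14% and 7.14%, and among the other 49 in 24.5%, 24.5%, 8.16% and 16.3%. The 49 include the windows of *Sdha*, *Uqcrfs1* and *Cox8b*, which were not tested on the array. The windows of *Cycs*, *Cox8a* and *Cox6a1* are shown, from 250 bases before to 20 bases after the start site, because *Cycs* and *Cox8a* lay higher on every PTH array and *Cox6a1* is the widely expressed partner of the 1 gene called. All lie on the minus strand of GRCm38.p6, at chr6:50566550-50566819, chr19:7217597-7217866 and chr5:115348939-115349208, and are printed 5′ to 3′ on the strand of the gene with motif matches in capitals.
Cycs: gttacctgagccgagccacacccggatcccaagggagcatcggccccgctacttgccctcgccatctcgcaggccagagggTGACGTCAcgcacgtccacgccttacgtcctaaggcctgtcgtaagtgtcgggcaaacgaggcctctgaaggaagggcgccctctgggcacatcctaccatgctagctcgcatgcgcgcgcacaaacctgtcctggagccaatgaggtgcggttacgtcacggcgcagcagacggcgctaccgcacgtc
Cox8a: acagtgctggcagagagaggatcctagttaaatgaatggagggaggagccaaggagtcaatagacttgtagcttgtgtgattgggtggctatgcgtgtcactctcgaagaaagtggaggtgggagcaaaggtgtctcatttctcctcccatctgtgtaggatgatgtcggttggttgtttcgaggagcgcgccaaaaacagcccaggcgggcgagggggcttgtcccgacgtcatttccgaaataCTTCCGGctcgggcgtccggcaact
Cox6a1: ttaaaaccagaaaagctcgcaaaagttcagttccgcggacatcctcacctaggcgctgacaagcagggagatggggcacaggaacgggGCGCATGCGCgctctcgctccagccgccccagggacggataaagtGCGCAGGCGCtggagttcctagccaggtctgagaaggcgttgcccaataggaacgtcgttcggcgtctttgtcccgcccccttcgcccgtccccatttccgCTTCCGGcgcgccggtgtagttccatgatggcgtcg
The capitals mark the cAMP response element of *Cycs*, which begins at base -169 from the start site, and a GABPA match of *Cox8a* at -5. A further GABPA match of *Cox8a* begins at base 33 past the start. In *Cox6a1* the capitals mark NRF1 matches at -162 and -117 and a GABPA match at -16.

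The subunit genes as a whole lay slightly higher in PTH tubes, by amounts that for single genes did not pass the test. Only *Cox6a2* was called, as lower, and its call was lost whichever array was left out. Of the 70 genes, 51 (72.9%) had a log2 difference above 0, against 50.8% of the 11979 genes tested. The median difference was 0.11, against 0.0053 over all genes, with quartiles of -0.014 and 0.21. At an adjusted p under 0.05 (limma), 1 of the 70 was called, against 1.73% of all genes, and none was called higher, against 0.685%. At an unadjusted p under 0.05, 4 genes were higher (*Ndufb9*, *Ndufa1*, *Ndufa5* and *Atp5a1*) and 1 lower (*Cox6a2*), against 7.51% and 7.39% of all genes. That count of 5 was 3 when control 1, control 2 or PTH 2 was left out. The 3 PTH arrays all lay above the 3 control arrays for 16 genes (22.9%), against 11.1% of all genes, and all lay below for *Cox6a2* and *Atp5f1* (2.86%), against 10.8%.

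The same small shift was seen on every array when the 70 genes were averaged. The mean deviation from each gene's mean over the 6 arrays was -0.059, -0.081 and -0.015 in control tubes and 0.026, 0.048 and 0.081 in PTH tubes, while over all genes tested it stayed between -0.0089 and 0.0051. The PTH arrays thus all lay above the controls, 0.10 apart in the mean, which is a shift of a few percent in signal. The members share arrays and are not replicates of the treatment, so no test is given for this mean. Under median scaling in place of quantile normalization, 92.9% of the 70 genes lay above 0 against 67.8% of all genes, and the medians were 0.26 and 0.12.

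**Figure D1:**
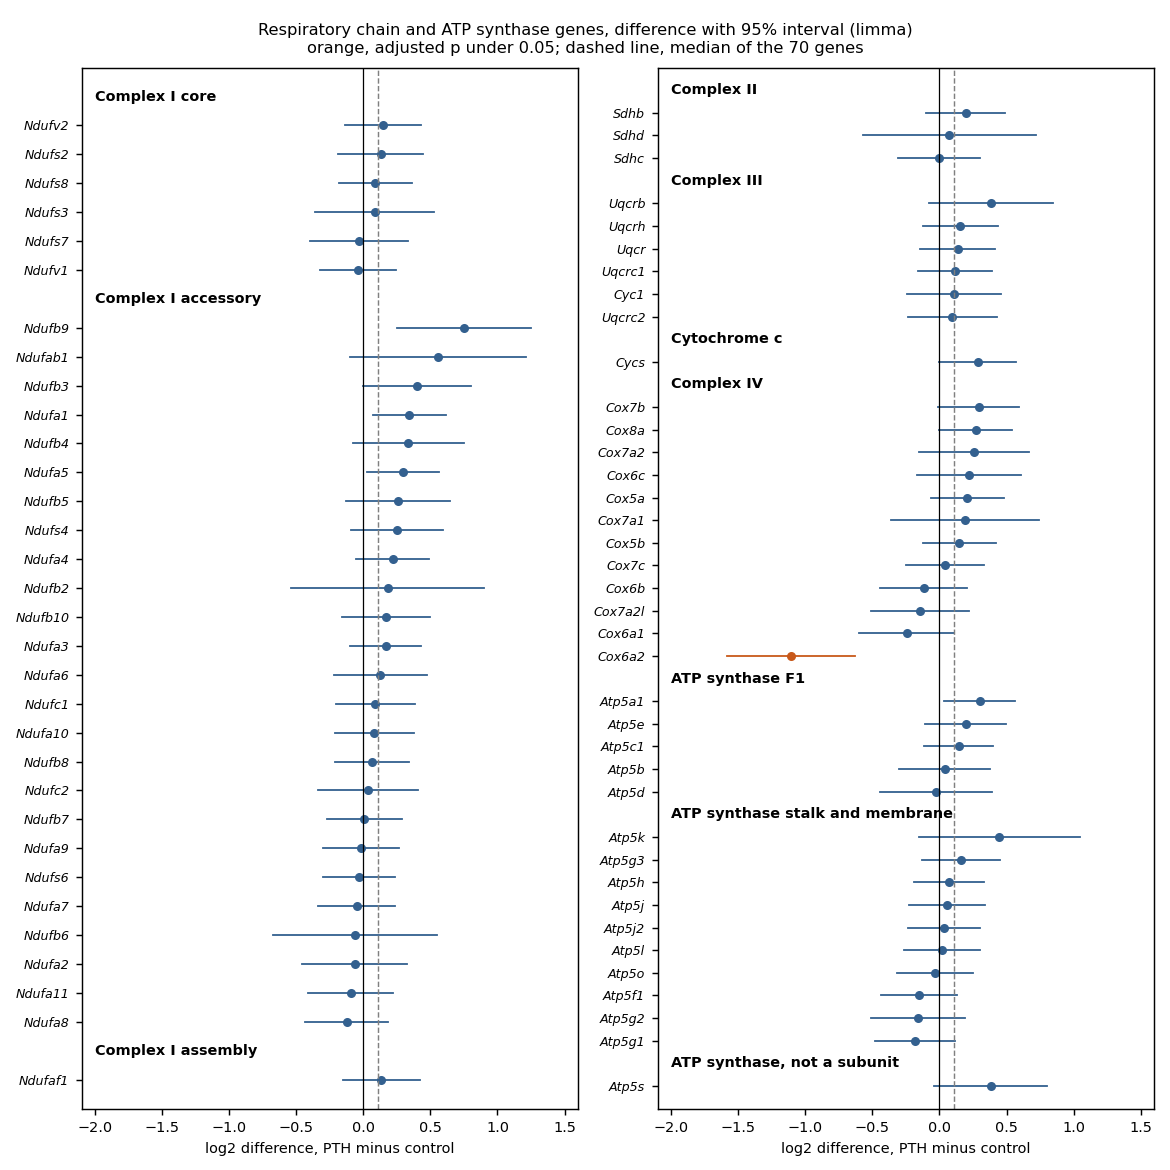
Difference in normalized log2 signal (PTH minus control, x axis) of each tested respiratory chain and ATP synthase gene, grouped by complex, with its 95% interval from limma (bars) and the median of the 70 genes (dashed line). Most intervals include 0, 51 of 70 points lie to the right of 0, and *Cox6a2* in orange is the gene with an adjusted p under 0.05.

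Markers of several bone and blood cell types differed between the groups, while other marker lists held no called gene. Summed levels given here are normalized signals on the linear scale with the offset taken off, over the brightest probe of each marker. Of the 6 osteoclast markers, 4 were tested, all 4 lay higher on every PTH array and 3 were called, their summed level being 11728.6 to 13237 in control and 15810.6 to 20416.9 in PTH tubes, with *Calcr* and *Atp6v0d2* detected on no array. Of the 9 osteocyte and osteoblast markers, all tested, every difference was below 0 and 3 were called lower, with summed levels of 30201.6 to 31546.5 in control and 16337.9 to 17680.5 in PTH tubes. Each of the 9 was detected on every control array, and *Sost* was the one detected on only 1 PTH array. Of the 8 neutrophil and myeloid markers 7 were tested and 4 called lower (52955.7 to 53831.4 against 34105 to 38681.9, *Ela2* on no array). All 3 red cell markers tested lay lower on every PTH array and 2 were called, with a median log2 difference of -1.89. *Eraf*, the one not called, was detected on 3 control arrays but on only 1 PTH array. Of 6 macrophage markers, all tested, 4 lay lower on every PTH array and none was called (3 at an unadjusted p under 0.05, limma), with summed levels of 5699.62 to 5870.97 in control and 4459.25 to 4754.53 in PTH tubes. The macrophage markers *Cd68* (-0.021) and *Csf1r* (-0.036) overlapped between the groups. Of 5 cartilage markers 4 were tested, of which 3 lay lower and 1 higher on every PTH array and 1 was called lower. The gene called, *Agc1*, was detected on all 3 control arrays and no PTH array, so its control arrays alone carried it past the detection filter. *Col10a1*, also lower, was detected on 3 control arrays and 1 PTH array. The summed levels of the cartilage markers were 853.468 to 881.529 against 899.214 to 907.733, with *Matn1* on no array. Of 5 B lymphocyte markers 2 were tested, both below 0. All 5 endothelial markers were tested, 2 above and 3 below 0. Neither of these lists held a called gene. Of the neutrophil and myeloid markers 7, and of the osteoclast markers 4, were detected on all 6 arrays. Markers of neutrophil and myeloid cells and of osteoclasts were thus still measured in the tubes, and which cells held this RNA was not tested. In tissue RNA, fewer cells of a type and less RNA per cell cannot be told apart. The part of these cell types in the differences of the subunit genes was not tested.

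Complex I, NADH dehydrogenase, showed small differences in its catalytic core and a wider range in its accessory subunits. Of the 7 core genes 6 were tested, 4 lay above 0 and the median was 0.086, with none at an unadjusted p under 0.05. *Ndufv2*, an iron-sulfur subunit, had the highest difference (0.14, 95% interval -0.14 to 0.43). *Ndufv1*, the subunit that binds NADH, had the lowest (-0.044, -0.33 to 0.24), with means of 11.86 ± 0.076 in control and 11.82 ± 0.10 in PTH tubes (SD, n = 3). The groups overlapped for every core gene tested. *Ndufs1*, which carries iron-sulfur clusters, was on the array with a probe detected on no array, its deposited signal being 99.9 to 110.9.

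Of the 25 accessory genes, all tested, 18 lay above 0, with a median of 0.13, and 5 lay higher on every PTH array (*Ndufb9*, *Ndufa1*, *Ndufa5*, *Ndufa3* and *Ndufa4*). *Ndufb9*, a subunit of the membrane arm, was at 7.61, 7.26 and 7.83 in control and at 8.52, 7.93 and 8.51 in PTH tubes. The groups did not overlap, though the lowest PTH array, PTH 2, lay only slightly above the highest control, control 3. The log2 difference was 0.75 (SE 0.21, adjusted p = 0.160, limma), a 1.68-fold higher signal and the highest difference of the 70 genes, and it did not pass the adjusted test. It passed under quantile normalization alone (0.54, adjusted p = 0.0136) and with an offset of 50 (0.66, adjusted p = 0.0471), and over the alternatives other than leaving out an array its adjusted p lay between 0.0136 and 0.336.

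*Ndufa1*, a small membrane subunit needed for assembly, was at 10.93, 11.06 and 10.92 in control and at 11.29, 11.37 and 11.27 in PTH tubes, a difference of 0.34 (SE 0.12, adjusted p = 0.229, limma). The spread within each group was small beside the gap, and the groups did not overlap. *Ndufa5*, at 10.85, 10.77 and 10.81 against 11.11, 11.18 and 11.03, differed by 0.29 (SE 0.12, adjusted p = 0.297, limma), and its dimmer probe by 0.25. *Ndufs4*, a subunit late in assembly, had 4 tested probes, all higher with PTH by 0.23 to 0.46, and on 3 of the 4 the groups did not overlap, though they did on the brightest. The lowest accessory difference was that of *Ndufa8* (-0.13, 95% interval -0.44 to 0.19), whose dimmer probe gave 0.033. *Ndufa4*, which by its symbol is counted here but whose protein is now assigned to complex IV, was at 12.45, 12.46 and 12.48 in control and at 12.64, 12.63 and 12.78 in PTH tubes, a difference of 0.22 (SE 0.12, adjusted p = 0.446, limma). Its control arrays lay close together and below all PTH arrays. The assembly factor *Ndufaf1* differed by 0.13 (-0.15 to 0.42).

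Complex II, succinate dehydrogenase, has 4 genes, of which 3 were tested. The iron-sulfur subunit *Sdhb* was at 9.41, 9.41 and 9.46 in control and at 9.50, 9.58 and 9.80 in PTH tubes. All PTH arrays lay above the controls by a narrow margin, and the difference of 0.20 (SE 0.13, adjusted p = 0.554, limma) did not pass the test. The 2 other *Sdhb* probes gave 0.22 and, on a dim probe detected on only 3 arrays, -0.15. The membrane anchors *Sdhd* and *Sdhc* differed by 0.074 (-0.57 to 0.72) and -0.0046 (-0.31 to 0.30). The median of the 3 genes, 0.074, was -0.043 without control 2, -0.048 without PTH 3 and -0.082 without both arrays numbered 3. The flavoprotein *Sdha* was on the array with 2 probes, neither detected on any array, with signals from 91.1 to 133.6.

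Complex III, the cytochrome bc1 complex, was the only class of 2 or more genes in which every tested gene lay above 0. All 6 did, with differences from 0.095 (*Uqcrc2*, a core protein) to 0.38 (*Uqcrb*, which lies near the quinone site) and a median of 0.12, and none was at an unadjusted p under 0.05. *Uqcrb* was at 9.98, 10.27 and 10.43 in control and at 10.46, 10.39 and 10.99 in PTH tubes. The groups overlapped, since PTH 2 lay below control 3, and the difference of 0.38 (SE 0.20) had an adjusted p of 0.433 (limma), with 0.38 on its dimmer probe too, where the groups did not overlap. The difference on the brightest probe was 0.19 without PTH 3 and 0.26 without control 1, and at most 0.50 with another array left out. *Cyc1*, the haem-bearing cytochrome c1, differed by 0.11 (-0.24 to 0.46), and *Uqcrh*, the hinge protein, by 0.16, the only gene of the complex whose groups did not overlap on its brightest probe. *Uqcrfs1*, the Rieske iron-sulfur protein, was on the array with 2 probes, of which 1 was detected on a single control array.

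*Cycs*, the electron carrier cytochrome c between complexes III and IV, was higher in value on all 3 of its probes. The brightest was at 10.86, 10.74 and 10.61 in control and at 11.08, 11.01 and 10.98 in PTH tubes. The PTH arrays all lay above the controls, with less spread among them. The difference was 0.29 (SE 0.12, adjusted p = 0.346, limma), with 0.38 (adjusted p = 0.223) and 0.32 (adjusted p = 0.586) on the other probes, none passing the test.

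**Figure D2:**
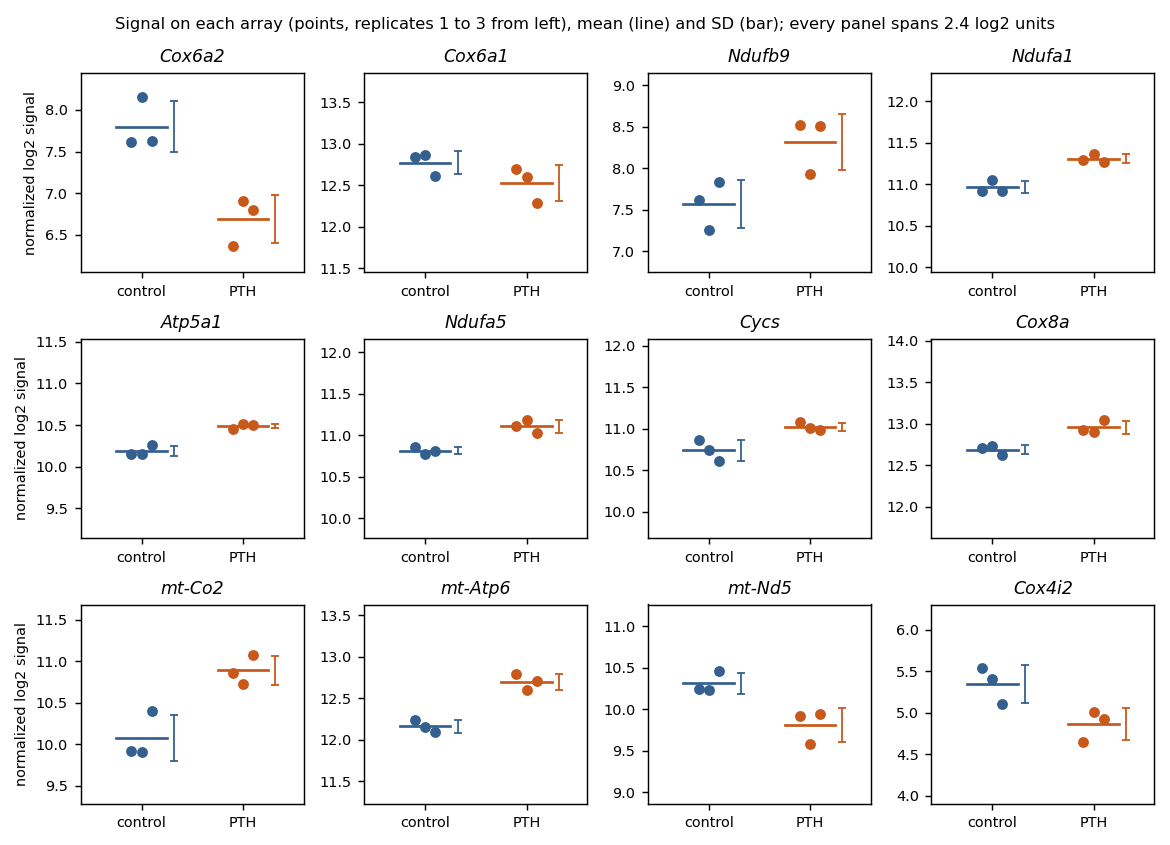
Normalized log2 signal (y axis, the same span in every panel) of 12 genes on the 3 control and 3 PTH arrays (points), with the mean (line) and SD (bar) of each group. Of the panels, *Cox6a2* has the largest difference in means downward (-1.11) and *mt-Co2* (0.81) and *Ndufb9* (0.75) the largest upward, and the groups overlap for *Cox6a1* alone. *Cox4i2* was detected on no PTH array.

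Complex IV, cytochrome c oxidase, held the single gene called. *Cox6a2*, the isoform of subunit VIa that heart and skeletal muscle use, was at 7.62, 8.15 and 7.62 in control and at 6.36, 6.91 and 6.80 in PTH tubes. The PTH arrays all lay below the controls, by at least the distance between PTH 2 and control 1, and the probe was detected on all 6 arrays. The log2 difference was -1.11 (SE 0.21, adjusted p = 0.0468, limma), a 2.15-fold lower signal. The call was lost whichever of the 6 arrays was left out (differences of -1.22 to -0.93, adjusted p = 0.0966 to 0.132, limma). Over the other alternatives the difference stayed between -1.25 and -0.68, with adjusted p from 0.000956 to 0.232.

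Markers of skeletal muscle were near background beside it. Of 10 such markers 2 were tested, *Tnni2* (-0.55, adjusted p = 0.116, limma) and *Mylpf* (-0.075), and 6 were detected on no array, among them skeletal actin *Acta1* and muscle creatine kinase *Ckm*. *Tnni2* lay lower on every PTH array, and the summed level of the list, as defined above, was 126.9 to 147.6 in control and 108.2 to 115.6 in PTH tubes. Its part in the *Cox6a2* difference was not tested.

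The widely expressed partner of that isoform, *Cox6a1*, was at 12.84, 12.87 and 12.61 in control and at 12.70, 12.60 and 12.29 in PTH tubes on its brightest probe. The groups overlapped, and the difference was -0.24 (-0.60 to 0.11), against 0.017 and -0.046 on its other probes. The other isoform families of complex IV showed no called gene. *Cox7a1*, the muscle form of subunit VIIa, differed by 0.19 (-0.37 to 0.74), *Cox7a2*, the widely expressed form, by 0.26 (-0.15 to 0.67), and the related *Cox7a2l*, a factor of respiratory supercomplexes, by -0.14 and -0.17 on its probes. *Cox8b*, the muscle form of subunit VIII, was detected on 1 array and *Cox8c*, the testis form, on none. *Cox8a*, the widely expressed form, was at 12.70, 12.73 and 12.63 in control and at 12.92, 12.90 and 13.05 in PTH tubes, a difference of 0.27 (SE 0.12, adjusted p = 0.344, limma) with no overlap. *Cox6b*, the older name of *Cox6b1*, gave -0.12 and 0.061 on its probes, and *Coxvib2*, the array's name for the testis form of that subunit, gave -0.43 (-1.10 to 0.24).

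Of the 14 complex IV genes 12 were tested and 8 lay above 0, with a median of 0.17 (0.091 without control 2). *Cox5a*, at 12.09, 12.08 and 11.97 against 12.23, 12.33 and 12.21, and *Cox5b*, at 12.88, 12.83 and 12.81 against 13.05, 13.01 and 12.90, are nuclear subunits near the catalytic core. Neither overlapped between the groups, and the differences were 0.21 (SE 0.12) and 0.15 (SE 0.12), with adjusted p of 0.475 and 0.624 (limma). The highest difference was that of *Cox7b* (0.29, 95% interval -0.0098 to 0.59). The mean deviation over the 12 genes, *Cox6a2* included, was -0.00072 in control and 0.00072 in PTH tubes. *Cox4i1* and *Cox4i2*, the widely expressed and the lung-enriched form of subunit IV, are not taken in by the name rule and are given beside it. *Cox4i1* differed by -0.011 (-0.30 to 0.28). *Cox4i2* was at 5.54, 5.40 and 5.10 in control and at 4.65, 5.01 and 4.92 in PTH tubes, lower on every PTH array and detected on none of them (log2 difference -0.49, adjusted p = 0.224, limma). It was detected on all 3 control arrays, so these alone carried it past the detection filter.

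ATP synthase showed small positive values in its catalytic F1 head and values around 0 in its stalk and membrane part. All 5 genes of F1 were tested, 4 lay above 0 and the median was 0.14. *Atp5a1*, the alpha subunit, was at 10.15, 10.15 and 10.26 in control and at 10.46, 10.51 and 10.50 in PTH tubes. The groups lay apart by more than the spread within them, and the difference was 0.30 (SE 0.11, adjusted p = 0.276, limma). *Atp5b*, the beta subunit that bears the catalytic site, was at 14.30, 14.26 and 14.04 against 14.42, 14.24 and 14.05, which overlapped and differed by 0.040 (-0.30 to 0.38). *Atp5c1*, the gamma subunit of the rotor, differed by 0.14 without overlap, and *Atp5d*, the delta subunit, had the lowest value (-0.028, -0.44 to 0.39).

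Of the 10 genes of the stalk and membrane part, 6 lay above 0 and the median was 0.028. *Atp5k*, a dimerization subunit, had the highest value (0.45, -0.15 to 1.04) with the widest spread, at 5.35, 4.50 and 5.36 in control and 5.47, 5.81 and 5.27 in PTH tubes. *Atp5g1*, *Atp5g2* and *Atp5g3* encode the same c-ring protein, and differed by -0.18 (-0.48 to 0.12), -0.16 (-0.51 to 0.19) and 0.16 (-0.13 to 0.45). Only *Atp5g3*, at 13.99, 13.89 and 13.95 against 14.04, 14.26 and 14.02, did not overlap between the groups, and whether the 3 genes differ from each other was not tested. *Atp5f1*, subunit b of the peripheral stalk, lay lower on every PTH array on its brightest probe (-0.15), while its 3 other probes gave 0.069 to 0.12. The dimmest *Atp5f1* probe was detected on only 3 arrays. *Atp5h*, also of the stalk, gave 0.068 and -0.055, and *Atp5j* gave 0.059 and -0.0047. The dimmest of 3 *Atp5l* probes was at 7.86, 8.02 and 8.19 in control and at 8.98, 8.65 and 8.55 in PTH tubes. It did not overlap and differed by 0.70 (adjusted p = 0.0869, limma), while the brighter probes gave 0.021 and 0.19. The coupling factor gene *Atp5s* differed by 0.38 (-0.043 to 0.80).

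**Figure D3:**
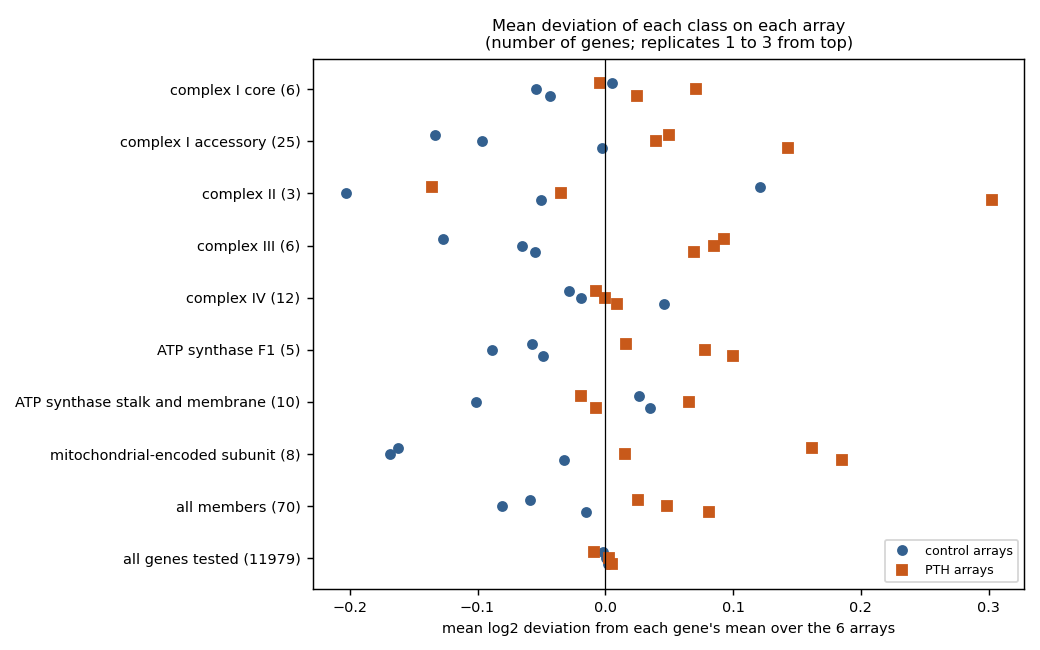
Mean deviation in normalized log2 signal of each class of genes (x axis) on the 3 control arrays (circles) and the 3 PTH arrays (squares), with the number of genes in brackets. Complex I accessory, complex III, ATP synthase F1, the mitochondrial-encoded subunits and the 70 genes together have all PTH arrays above the controls, and the other classes plotted and all genes tested overlap.

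Probes for the same gene did not always give the same sign. Of 21 genes with more than 1 tested probe, 11 had all probes on 1 side of 0 and 10 on both (*Atp5f1*, *Atp5h*, *Atp5j*, *Cox6a1*, *Cox6b*, *Ndufa3*, *Ndufa8*, *Ndufc1*, *Ndufc2* and *Sdhb*). Over all 99 tested probes 71 lay above 0, 1 was called and 9 were at an unadjusted p under 0.05. *Ndufc2*, a membrane-arm subunit, had the widest split across 0 after *Sdhb*, at 0.034 and -0.27. Its probe at -0.27 was dim and detected on only 3 of the 6 arrays. The same holds for the *Sdhb* probe at -0.15, while the brighter *Sdhb* probes gave 0.20 and 0.22. *Ndufc1* gave 0.089 and -0.11, and *Ndufa3* 0.17 and -0.063. None of these probes was called.

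The subunits encoded by mitochondrial DNA differed by -0.50 to 0.81, with none called. All 8 on the array were tested, 7 lay above 0 and the median was 0.27. *mt-Co2*, a copper-bearing core subunit of complex IV, was at 9.92, 9.91 and 10.40 in control and at 10.86, 10.73 and 11.08 in PTH tubes, a difference of 0.81 (SE 0.18, adjusted p = 0.0766, limma). *mt-Atp6*, the proton channel subunit of ATP synthase, was at 12.23, 12.15 and 12.09 against 12.79, 12.59 and 12.71, a difference of 0.54 (SE 0.12, adjusted p = 0.0866, limma). In both the groups lay clearly apart. *mt-Nd5*, a proton-pumping subunit of complex I, went the other way, at 10.25, 10.23 and 10.46 against 9.91, 9.58 and 9.94 (-0.50, SE 0.15, adjusted p = 0.170, limma). *mt-Nd1* differed by 0.32 without overlap, *mt-Cytb* by 0.10 and *mt-Nd4* by 0.044. These RNAs are cut from long shared transcripts, and the probes did not all move one way.

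Other nuclear genes of the same machinery gave small values with no call. Of 7 subunit genes that the name pattern missed 6 were tested and 4 lay above 0, with a median of 0.18. They include *Grim19* (current name *Ndufa13*) of complex I at 0.19 and *1110020P15Rik* (*Uqcr10*) of complex III at 0.16, neither past the test. *2010107E04Rik* (*Atp5mpl*) of ATP synthase was at 12.40, 12.38 and 12.41 in control and at 12.76, 12.83 and 12.62 in PTH tubes, a difference of 0.34 with no overlap (adjusted p = 0.236, limma). Of 16 tested assembly factors 11 lay above 0 (median 0.15), the highest being *Bcs1l*, which inserts the Rieske protein into complex III, at 0.47 (adjusted p = 0.197, limma). Of 13 tested genes of the tricarboxylic acid cycle 10 lay above 0 (median 0.093, and 0.17 without control 3), with fumarase *Fh1* the highest at 0.40 (adjusted p = 0.159, limma). None of the 3 lists held a called gene, against 1.73% of all genes.

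**Figure D4:**
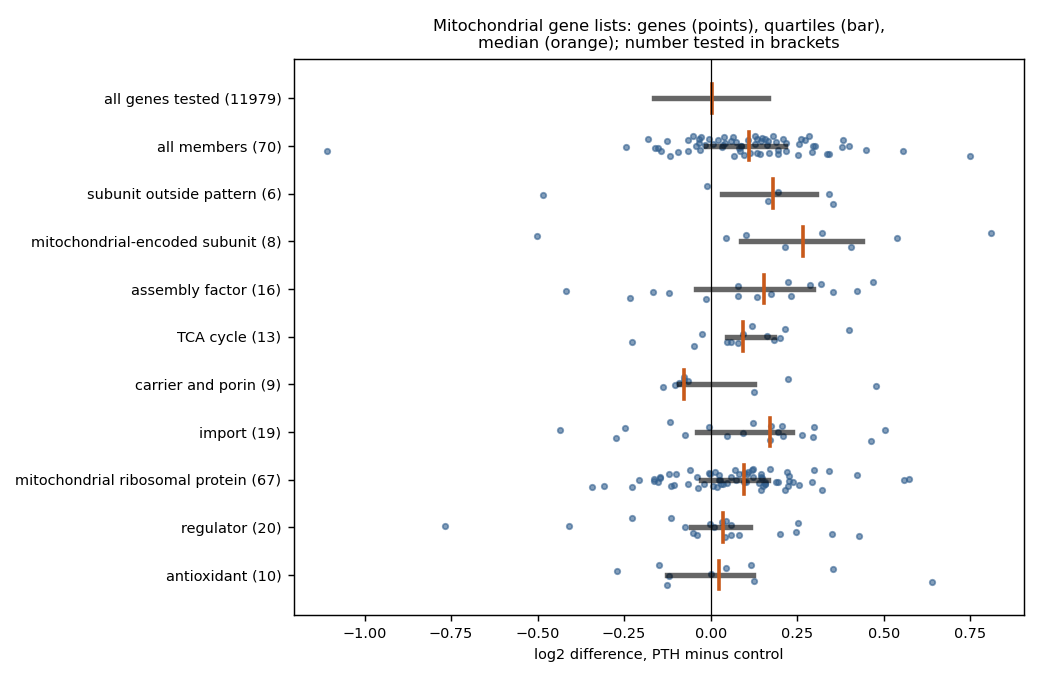
Difference in normalized log2 signal (PTH minus control, x axis) for the genes of each mitochondrial list (points), with quartiles (bar) and median (orange line), and the number tested in brackets. The medians of the 70 respiratory chain and ATP synthase genes (0.11) and of the mitochondrial-encoded subunits (0.27) lie to the right of that of all genes (0.0053). So do those of subunits outside the pattern (0.18), import (0.17), assembly factors (0.15), mitochondrial ribosomal proteins (0.096), TCA cycle (0.093), regulators (0.036) and antioxidant enzymes (0.023). The median of carriers and porins (-0.076) lies to the left, though it was -0.017 without PTH 3 and 0.093 under median scaling.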

How the data were processed

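Gene expression in cortical bone tubes was measured on 6 Illumina mouse bead arrays, 3 Ctr and 3 Pth, grouped by the sample labels. The authors deposited the linear signal intensity of every probe, neither normalized nor background subtracted, exported from GenomeStudio. Beside each intensity, the deposited table holds a detection p-value against the negative controls of the array. The authors' own quantile normalized values and differential scores were not used here.

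From the intensities, neqc in limma 3.58.1 (R 4.3.3) gave background corrected (normexp through the detection p-values, offset 16), quantile normalized log2 values. Probes with a detection p under 0.05 on at least 3 of the 6 arrays were tested (16214 probes) with lmFit and eBayes, and p-values were adjusted by Benjamini-Hochberg over all of them. A gene was represented by its brightest tested probe and called at an adjusted p under 0.05. Fold changes come from values with the offset added, which makes those of dim probes smaller. Precision is limited by the number of arrays. With 3 against 3, the smallest p of an exact permutation test is 0.1. Quantile normalization and the fit alone were tested on simulated data. Those values were drawn independently for each array, so background correction, the detection filter and effects shared by same-numbered arrays were not tested.

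The genes and all lists of genes were chosen with earlier results of these data known. Genes are named with values if they had an unadjusted p under 0.01 or an adjusted p under 0.05, were the highest or lowest of their class, are catalytic or cofactor-bearing, belong to an isoform family, or had probes that differed in sign or call. *Ndufa1*, *Ndufa3*, *Ndufa4*, *Ndufa5*, *Ndufs4*, *Uqcrh*, *Atp5c1* and *Atp5l* among the members, and all genes of other lists, were named after their values were seen unless that rule names them. *Ndufa4l2* was not analysed here. Gene symbols are those of the array, of which 71 members' are current in RefSeq GRCm38.p6 and 4 were matched as older names. Promoter sequences are from RefSeq. Alternatives were other background corrections and normalizations, other detection filters, each array left out, the mean of a gene's probes, the methods' t-test and a block for the replicate number. A term for the arrays numbered 3, and leaving both out, were added after the data were seen.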

Additional observations from a re-analysis of the deposited data

How the results depend on the processing

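Among the member genes, 3 were called under quantile normalization alone (*Cox6a2*, *Ndufa1* and *Ndufb9*), 2 with an offset of 50 (*Cox6a2* and *Ndufb9*), 1 (*Cox6a2*) under cyclic loess, stricter detection and the mean of probes, and 0 under median scaling, no detection filter, the methods' t-test, a term for the arrays numbered 3, and without both of these arrays. In these 5 settings 3, 9, 13, 11 and 5 members were at an unadjusted p under 0.05, and *Cox6a2* had adjusted p-values (limma unless the t-test) of 0.0576, 0.0948, 0.192, 0.0854 and 0.232. Over all genes 207 were called, against 589, 402, 104, 158, 340 and 91 under quantile normalization alone, an offset of 50, median scaling, no filter, stricter detection and the t-test, and 50 to 78 with an array left out. Without both arrays numbered 3, limma called 0 genes, and 1616 were at an unadjusted p under 0.05.

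Leaving out 1 array gave 0 called members each time (limma), with 3 to 6 at an unadjusted p under 0.05, and a median over members of 0.088 to 0.13. The class medians then ran from 0.035 to 0.087 in complex I core, 0.083 to 0.18 in accessory genes, -0.048 to 0.26 in complex II, 0.10 to 0.19 in complex III, 0.091 to 0.17 in complex IV, 0.12 to 0.16 in F1 and 0.00078 to 0.048 in the stalk and membrane part. Signs changed within these fits for *Atp5b* (-0.051 to 0.13), *Atp5d* (-0.19 to 0.078), *Cox4i1* (-0.083 to 0.045), *Cox7a1* (-0.040 to 0.43), *Ndufc2* (-0.072 to 0.19), *Ndufv1* (-0.085 to 0.014) and *Sdhc* (-0.048 to 0.067).

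Median scaling moved the median of all genes to 0.12 and that of the members to 0.26, with 0.24 in complex I core, 0.27 in accessory genes, 0.28 in complex III, 0.28 in complex IV, 0.27 in F1 and 0.20 in the stalk and membrane part. It turned *Atp5d* (0.12), *Atp5g1* (0.014), *Cox4i1* (0.14), *Cox6b* (0.055), *Cox7a2l* (0.015), *Ndufv1* (0.10) and *Sdhc* (0.17) positive. Cyclic loess turned *Atp5b* (-0.038) and *Sdhc* (0.013), and the mean of probes *Atp5f1* (0.030), *Ndufc1* (-0.0098) and *Ndufc2* (-0.12). The complex IV median was 0.11 under quantile normalization alone, and the complex III median 0.17 without both arrays numbered 3. The cause of these changes was not tested.

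With the replicate number as a block, 0 members (10 at an unadjusted p under 0.05) and 44 genes over all were called, and *Cox6a2* had an adjusted p of 0.0593 (limma). Same-numbered arrays deviated together with r of 0.07, 0.06 and 0.27 over all tested probes, and of 0.097, 0.30 and 0.48 over member probes. Detected probes rose with the number in both groups (15758, 16451 and 17369 in control, 15504, 16352 and 17374 in PTH tubes). Not every array correlated best with its own number, and the main fit did not pair the arrays. Whether same-numbered arrays shared mice or a batch was not tested. A slide block was not run, since the table names no slide.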

Other observations

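Mitochondrial genes outside the respiratory chain and ATP synthase held no called gene (adjusted p under 0.05, limma). Of 67 tested genes for mitochondrial ribosomal proteins 47 (70.1%) lay above 0, against 72.9% of the 70 subunit genes and 50.8% of all genes. Their median log2 difference was 0.096. At an unadjusted p under 0.05 (limma), 2 were higher and 1 lower, against 7.51% and 7.39% of all genes. Of 19 tested genes for protein import 13 lay above 0, with a median of 0.17 (0.11 without PTH 3). At an unadjusted p under 0.05 (limma) 3 of the 19 were higher, beside the same 7.51% of all genes. Of 9 tested carriers and porins 3 lay above 0, with a median of -0.076, which was -0.033 without control 1, -0.017 without PTH 3, -0.019 without both arrays numbered 3, -0.027 with no detection filter and 0.093 under median scaling. The adenine nucleotide carrier *Slc25a5* and the porins *Vdac1*, *Vdac2* and *Vdac3* lay between -0.10 and -0.065, and the phosphate carrier *Slc25a3* was at 11.23 ± 0.030 in control and 11.70 ± 0.28 in PTH tubes (SD, n = 3). Its groups did not overlap, and the difference of 0.48 had an adjusted p of 0.222 (limma).

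Among 20 tested regulators of mitochondrial genes 12 lay above 0, with a median of 0.036, which was -0.017 without PTH 2. *Nrf1* (0.031), *Gabpa* (-0.052), *Esrra* (0.044) and *Tfam* (0.25), which control or carry out transcription of these genes, had adjusted p-values (limma) of 0.945, 0.940, 0.921 and 0.642. *Ppargc1a*, the coactivator known for driving mitochondrial biogenesis, was detected on 1 array and not tested. *Pparg*, the nuclear receptor of fat cell formation, was at 6.55, 7.02 and 6.53 in control and at 5.73, 6.35 and 5.73 in PTH tubes, lower on every PTH array (-0.77, adjusted p = 0.157, limma). Of 6 fat markers 2 were tested, both above 0, and 4 were detected on no array. *Cfd* was detected on 1 control array and 3 PTH arrays, so its PTH arrays carried it past the detection filter. It lay higher on every PTH array (0.46, adjusted p = 0.251, limma), and *Lpl* differed by 0.17 with overlap. Of 10 antioxidant enzymes 6 lay above 0, with a median of 0.023 that was -0.043 without control 1, -0.0064 without control 2 and -0.084 without PTH 3. Mitochondrial superoxide dismutase *Sod2*, at 10.66, 10.80 and 11.06 against 11.23, 11.16 and 11.19, lay higher on every PTH array (0.35, adjusted p = 0.296, limma).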
